A study of Homo sapiens with 8 samples.

Results

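Translation initiation factor mRNAs were followed in U-2OS Tet-ON cells, a human osteosarcoma line that expresses the Tet-ON transactivator, after knockdown of the CGG-repeat binding protein CGGBP1. They were taken as every listed gene whose symbol begins with EIF and a digit. The rule found 56 of the 18388 listed genes, and 54 of them reached the minimum for testing, 100 reads in 3 or more of the compared libraries. EIF4E1B and EIF1AY did not. The factors were grouped as the EIF2 complex (3 genes), EIF2B (5), EIF3 (14), EIF4 with its partners (16), the EIF2 kinases (4) and other factors (12). The other 2 symbols are EIF3J-AS1, an antisense RNA and not a factor, and EIF5AL1, a copy of EIF5A.

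The cells received 50 nM of non-targeting siRNA (siControl) or of a pool of siRNAs against CGGBP1 (siCGGBP1) for 72 h, and the column headings name DMSO for every library. They were then labelled for 60 min with 75 µM 4-thiouridine (4sU), and 3 biological replicates were sequenced for each group. Single siControl libraries given 0 or 200 µM 4sU stand beside them. SLAM-Seq marks RNA made during the pulse: its 4sU is alkylated by iodoacetamide and is then read as C in place of T. Total RNA is all reads of a gene, here as reads per 1000000 (RPM) after TMM scaling. New RNA is the reads multiplied by the new-to-total ratio that GRAND-SLAM estimated from the conversions. The libraries were made from 3′ ends, so that levels were compared between genes without division by gene length. Knockdown by transient siRNA leaves residual mRNA in a mixed population, and in bulk libraries fewer cells of a kind and less RNA per cell cannot be told apart.

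During initiation, EIF2 bound to GTP brings the initiator tRNA to the small ribosomal subunit, and the exchange factor EIF2B recharges EIF2 with GTP after each round. EIF3 is the large scaffold that holds this subunit and joins it to the mRNA. EIF4F, made of the cap-binding EIF4E, the scaffold EIF4G and the helicase EIF4A, selects the capped 5′ end. The EIF2 kinases phosphorylate EIF2S1 under stress and thereby block its recharging, while the EIF4E-binding proteins hold EIF4E away from EIF4G. Many mRNAs of the translation machinery begin with a C followed by a run of pyrimidines, the 5′ terminal oligopyrimidine (TOP) motif.

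The start sequences of EIF3 and EIF2 genes are shown because some of them hold the TOP letters and because EIF3B and EIF2S1, which passed the test in total RNA, can be read beside subunits that did not. Each line gives 30 bases before and 15 bases from the start of the RefSeq gene on GRCh38.p14, 5′ to 3′, with the start base and any pyrimidine run that follows a starting C in capitals.
EIF3F (chr11:7987307-7987351, plus strand): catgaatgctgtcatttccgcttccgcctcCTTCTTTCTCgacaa
EIF3D (chr22:36529152-36529196, minus strand): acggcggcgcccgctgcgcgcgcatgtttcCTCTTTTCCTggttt
EIF3K (chr19:38619158-38619202, plus strand): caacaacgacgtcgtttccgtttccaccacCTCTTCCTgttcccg
EIF3M (chr11:32583801-32583845, plus strand): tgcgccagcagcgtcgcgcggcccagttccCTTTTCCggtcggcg
EIF3B (chr7:2354797-2354841, plus strand): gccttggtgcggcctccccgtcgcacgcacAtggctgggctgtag
EIF3C (chr16:28688528-28688572, plus strand): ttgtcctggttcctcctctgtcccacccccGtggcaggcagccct
EIF3I (chr1:32222377-32222421, plus strand): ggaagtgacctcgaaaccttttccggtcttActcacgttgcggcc
EIF2S1 (chr14:67360298-67360342, plus strand): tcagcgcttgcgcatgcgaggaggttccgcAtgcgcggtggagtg
EIF2S3 (chrX:24054926-24054970, plus strand): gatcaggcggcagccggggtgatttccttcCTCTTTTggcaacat
EIF3F, EIF3D, EIF3K and EIF3M start with C and an uninterrupted pyrimidine run, as does EIF2S3. EIF3B, EIF3I and EIF2S1 start with A and EIF3C with G. A RefSeq window from 250 bases before to 50 bases after the start was given for 46 of the 56 genes. EIF3A, EIF3E, EIF3G, EIF3H, EIF3L, EIF3CL, EIF3J-AS1, EIF2S2, EIF2AK1 and EIF4EBP1 had none. A C with at least 4 further C or T stood at the start of 9 of these 46 genes (19.6%), against 8.10% of the 7930 tested genes with a window and 5.14% of all 27305. The 9 are EIF2A, EIF2D, EIF2S3, EIF3D, EIF3F, EIF3K, EIF3M, EIF4A2 and EIF4B, and their total RNA fold changes ran from -1.004 (EIF2A) to 0.37 (EIF3F) on the log2 scale. Such a match describes the letters of 1 annotated start and was not tested as a site. Gene positions below are those of GENCODE 44 on GRCh38, which can begin upstream of the RefSeq start.

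CGGBP1 is known to bind short CGG repeats, and tracts of at least 3 uninterrupted repeats (CGGCGGCGG on either strand) were sought in the same windows. They occurred in 7 of the 46 genes (15.2%), against 14.7% of tested genes and 7.46% of all genes with a window. Of these 7, 3 with a tract before the start are printed, with the tract in capitals, on GRCh38.p14.
EIF4H (chr7:74174287-74174335, plus strand): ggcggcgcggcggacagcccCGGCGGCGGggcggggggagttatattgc
EIF5 (chr14:103334200-103334236, plus strand): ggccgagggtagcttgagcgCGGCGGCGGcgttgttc
EIF3J (chr15:44537015-44537063, plus strand): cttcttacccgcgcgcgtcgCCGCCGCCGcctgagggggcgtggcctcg
The tract of EIF3J lies on the opposite strand. The other genes with a tract were EIF1, EIF2AK2, EIF5A and EIF5AL1. EIF5A, which has several annotated starts, held tracts before and after a start, among them a tract of 4 repeats. EIF5AL1 held a tract of 8 repeats after its start. None of the 7 passed the test in total or new RNA. Among all tested genes 0.957% were called lower and 0.454% higher in total RNA, and 0.0493% were called in new RNA. The windows of EIF3F, EIF3B and EIF2S1 held no such tract. Sequence outside the windows was not searched, and these libraries do not measure binding of CGGBP1, so that its binding at these genes was not tested.

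The 6 compared libraries held between 10127519 and 14221516 reads, of which 1.13% to 1.44% fell on the initiation factor genes. Per 100 covered T they carried 0.183 to 0.263 conversions to C, and the library without 4sU 0.0638. CGGBP1 had 108, 94.2 and 77.1 RPM in the siControl and 18.4, 10.1 and 31.4 RPM in the siCGGBP1 libraries (log2 fold change -2.22, SE 0.39, edgeR adjusted p = 0.0138), with every siCGGBP1 library below every siControl library. The mesenchymal markers VIM, SPARC, COL1A1, CD44 and RUNX2 were present. The markers COL1A2 and TWIST1 (mesenchymal), KRT5 (epithelial) and HBB (blood) were also sought and had no entry among the listed genes. CD3E, CDH1 and PECAM1 had no read in any of the 6 libraries, and PTPRC and CDH5 stayed under 1 RPM. The epithelial marker EPCAM was detected at 5.94 ± 1.94 RPM in siControl and 11.01 ± 3.67 in siCGGBP1 (SD, n = 3), with overlap. SPARC and COL1A1 were called higher in siCGGBP1 (log2 fold changes 1.27 and 1.31), while CD44 (-0.87), RUNX2 (0.52) and VIM (0.16) did not pass the test, and the part of these markers in the results below was not tested. Replicate 3 of both groups gave a new-to-total ratio of 0 for 46.3% (siControl) and 50.0% (siCGGBP1) of the tested initiation factor genes, against 12.96% to 27.8% in the other libraries. Over all tested genes these shares were higher, at 56.9% and 58.5% against 22.5% to 31.9%.

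In total RNA, the 2 factors that passed the test were both lower in siCGGBP1: EIF3B, a scaffold subunit of EIF3, and EIF2S1, the alpha subunit of EIF2 that carries the regulatory phosphorylation site. Calls required an adjusted p below 0.05 together with a log2 fold change beyond 1 in either direction. By this rule 2 of 54 genes (3.70%) were lower and 0 were higher, against 0.957% lower and 0.454% higher among all 10138 tested genes. The median siControl level was 174 RPM over the 54 genes and 39.96 RPM over all tested genes. Shares set against all tested genes, here and elsewhere in the text, therefore compare genes of unlike read level. EIF3A, the largest EIF3 subunit, passed the adjusted p at a log2 fold change just inside 1. Without the limit on fold change 3 of 54 (5.56%) were lower and 0 higher, against 1.21% and 0.572% of all tested genes. At an unadjusted p under 0.05 there were 11 of the 54 (20.4%), against 16.4% of all tested genes. All siCGGBP1 libraries lay below all siControl libraries for 10 of the 54 (18.5%, against 12.1% of all tested genes) and above them for 3 (5.56%, against 12.1%). The median log2 fold change was -0.12 over the 54 genes and 0.00 over all tested genes. Of the 54 values 34 were negative, against 5061 of the 10138 over all tested genes. Summed over all 56 genes, 13820.2 ± 761 RPM in siControl compared with 11635 ± 266 RPM in siCGGBP1 (mean ± SD, n = 3), with no overlap between the groups. Single sums and shares of this kind carry no p-value here, since an exact permutation test of 3 against 3 libraries cannot go below 0.1.

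**Figure D1:**
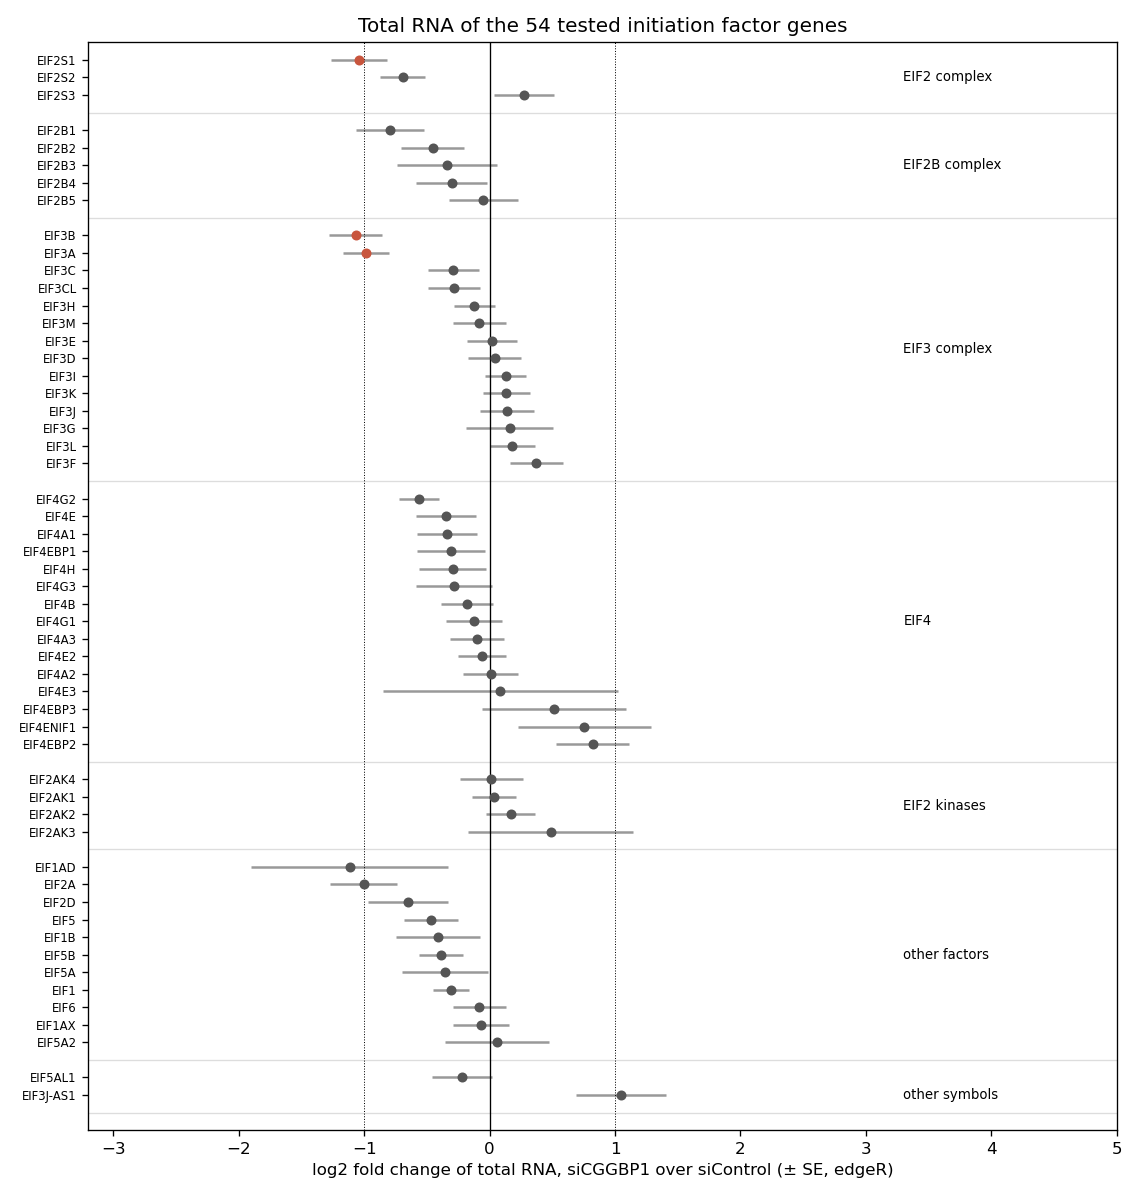
Log2 fold change of total RNA (siCGGBP1 over siControl, x axis) with its standard error for the 54 tested genes, grouped by complex. Red points passed an edgeR adjusted p under 0.05, and dotted lines mark a log2 fold change of 1 in either direction. EIF2S1, EIF3B and EIF3A are the 3 red points, all to the left of 0.

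EIF2 is a trimer of EIF2S1, EIF2S2 and EIF2S3, and its genes did not move alike. EIF2S1 (ENSG00000134001, chr14:67360328-67386516) had 314, 308 and 345 RPM in the siControl and 139, 122 and 208 RPM in the siCGGBP1 libraries. The highest siCGGBP1 library was still well below the lowest siControl library (log2 fold change -1.04, SE 0.22, edgeR adjusted p = 0.0351). EIF2S2, the beta subunit, had 571, 538 and 527 RPM in the siControl and 351, 389 and 272 RPM in the siCGGBP1 libraries, again without overlap. It did not pass the adjusted p (log2 fold change -0.69, SE 0.18, edgeR adjusted p = 0.0812). EIF2S3, the gamma subunit that holds GTP and the initiator tRNA, had 71.8, 94.96 and 117 RPM in the siControl and 107, 114 and 122 RPM in the siCGGBP1 libraries. These ranges overlapped, with a log2 fold change of 0.27 and a 95% interval from -0.25 to 0.80. There were 3.52 ± 0.748 reads of EIF2S1 for each read of EIF2S3 in siControl and 1.36 ± 0.323 in siCGGBP1. The summed EIF2 reads were 956, 942 and 989 RPM in the siControl and 597, 625 and 603 RPM in the siCGGBP1 libraries, with a gap between the groups wider than the range within either. The call of EIF2S1 held without siCGGBP1 replicate 3 (adjusted p = 0.0102), the library with its highest value in that group. It was lost without siControl replicate 1, 2 or 3 (edgeR adjusted p = 0.0922, 0.0846 and 0.124) and without siCGGBP1 replicate 1 or 2 (0.160 and 0.136).

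All 5 genes of EIF2B, the exchange factor of EIF2, had a negative log2 fold change, against 5061 of the 10138 tested genes. Of the 5, 0 passed the adjusted p, against 1.21% lower and 0.572% higher among all tested genes. EIF2B1, the alpha subunit, had 74.0, 66.1 and 91.8 RPM in the siControl and 53.1, 39.9 and 40.8 RPM in the siCGGBP1 libraries, with no overlap (log2 fold change -0.79, SE 0.27, edgeR adjusted p = 0.165). EIF2B2, EIF2B3, EIF2B4 and EIF2B5 overlapped between the groups, with log2 fold changes of -0.45, -0.34, -0.30 and -0.05. The summed reads were 354, 408 and 411 RPM in the siControl and 326, 325 and 242 RPM in the siCGGBP1 libraries, with every siCGGBP1 sum below the lowest siControl sum. EIF2B was the least abundant of the complexes, at 391 ± 32.2 RPM in siControl against 963 ± 24.4 for EIF2 and 5227 ± 312 for EIF3.

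Within EIF3, total RNA was lower for the scaffold subunits EIF3A and EIF3B and overlapped between the groups for the other 12 genes. EIF3A (ENSG00000107581, chr10:119033670-119080817) had 1076, 800.0 and 702 RPM in the siControl and 436, 442 and 423 RPM in the siCGGBP1 libraries. Its siCGGBP1 values lay within a narrow band well below the lowest siControl value (log2 fold change -0.99, SE 0.18, edgeR adjusted p = 0.0184). It did not pass the edgeR adjusted p without siControl replicate 1 (0.0771) or without siCGGBP1 replicate 1 or 2 (0.103 and 0.0644). Without siControl replicate 2 or 3 it passed and its log2 fold change went beyond 1 (-1.04 and -1.11), and without siCGGBP1 replicate 3 it passed at -0.96. EIF3B (ENSG00000106263, chr7:2354086-2380745) had 448, 679.7 and 437 RPM in the siControl and 229.6, 289 and 228 RPM in the siCGGBP1 libraries. Here siControl replicate 2 stood above the other two siControl libraries, and all 3 siCGGBP1 libraries were lower than any of them (log2 fold change -1.07, SE 0.21, edgeR adjusted p = 0.0257). The EIF3B call held without siControl replicate 1 (edgeR adjusted p = 0.0461). It was lost without siControl replicate 2 or 3 (edgeR adjusted p = 0.0994 and 0.05004, the latter just over the limit,) and without siCGGBP1 replicate 1, 2 or 3 (0.135, 0.0529 and 0.0583). EIF3A overlaps NANOS1 at its 3′ end and EIF3B overlaps SNX8 at its 5′ end, each on the opposite strand, and the strand setting of the counting is not given in the sources used here. NANOS1 had 12.3 RPM in siControl and 26.1 in siCGGBP1, far under the level of EIF3A. SNX8 had 116 and 121 RPM.

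**Figure D2:**
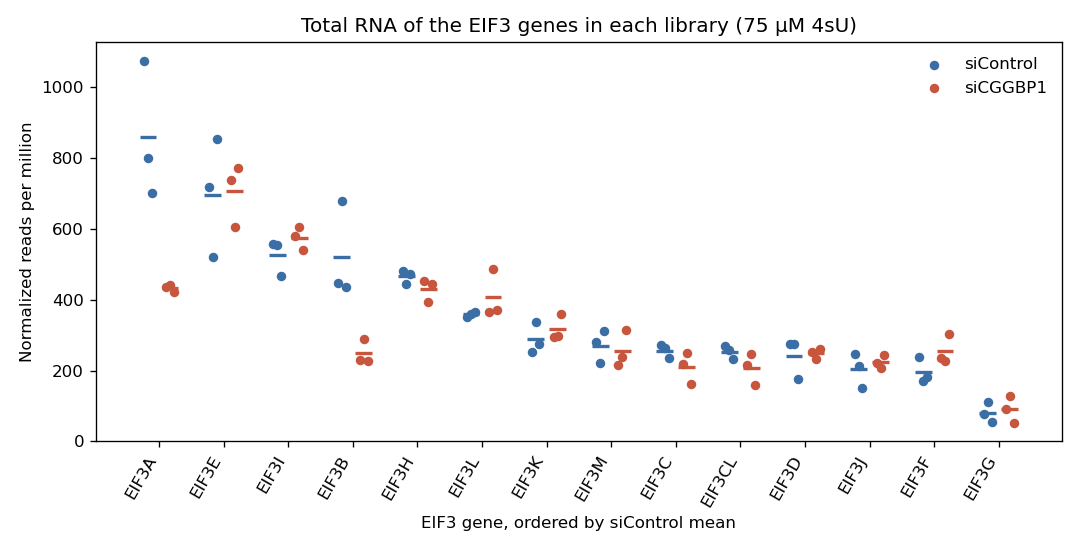
Total RNA of the 14 EIF3 genes in each library (points, TMM-scaled RPM) with group means (lines), ordered by the siControl mean. For EIF3A and EIF3B the blue siControl points lie above all red siCGGBP1 points, and for the other genes, EIF3F among them, the colours overlap.

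EIF3F, a subunit of the EIF3 octamer core with an MPN domain, was the EIF3 gene with the highest log2 fold change of the 14 and did not pass the test. EIF3F (ENSG00000175390, chr11:7970251-8001862) had 237, 171 and 183 RPM in the siControl and 234, 227 and 305 RPM in the siCGGBP1 libraries. The siControl replicate 1 value exceeded 2 of the 3 siCGGBP1 values, and siCGGBP1 replicate 3 was the highest of all (log2 fold change 0.37, SE 0.21, edgeR adjusted p = 0.406). The 95% interval of this log2 fold change ran from -0.08 to 0.83. The interval includes 0. By mean level EIF3F ranked 13 of the 14 EIF3 genes in siControl, above EIF3G alone, and 8 in siCGGBP1. The next genes in this order, EIF3J at 204 RPM and EIF3D at 242 RPM, overlapped with EIF3F at 197 RPM in their siControl libraries, and EIF3G at 81.3 RPM did not. EIF3A, at 859 ± 194 RPM (SD, n = 3), and EIF3E, at 698 ± 167, headed the siControl order, and EIF3E and EIF3I headed it in siCGGBP1.

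The make-up of the EIF3 reads differed between the groups. Of the reads summed over the 14 genes, EIF3F made up 4.28, 3.28 and 3.72% in the siControl and 5.15, 4.87 and 6.57% in the siCGGBP1 libraries, with no overlap. EIF3A made up 16.3 ± 2.71% in siControl and 9.40 ± 0.241% in siCGGBP1, and EIF3B 10.0 ± 2.66% and 5.39 ± 0.713% (mean ± SD, n = 3). For each read of EIF3F there were 4.35 ± 0.451 reads of EIF3A in siControl and 1.73 ± 0.301 in siCGGBP1. A share rises when other parts of the sum fall. Of the summed reads without EIF3A and EIF3B, EIF3F took 5.91, 4.58 and 4.84% in the siControl and 6.04, 5.78 and 7.65% in the siCGGBP1 libraries, and these ranges overlapped. The sum of all 14 genes was 5227 ± 312 RPM in siControl and 4613 ± 56.7 in siCGGBP1, without overlap. Without EIF3A and EIF3B it was 3845 ± 154 and 3931 ± 52.7 RPM, with overlap.

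**Figure D3:**
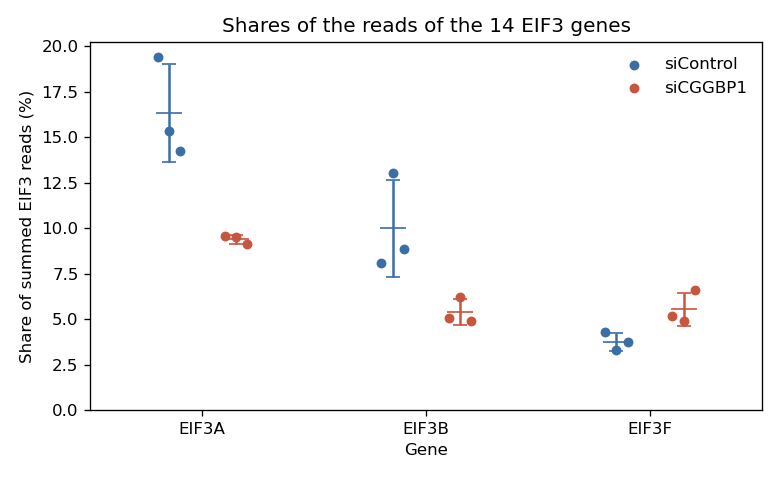
Share of the summed reads of the 14 EIF3 genes taken by EIF3A, EIF3B and EIF3F, in percent, for each library (points) with the group mean and SD (n = 3). The siCGGBP1 points are below the siControl points for EIF3A and EIF3B and above them for EIF3F.

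The other EIF3 genes had log2 fold changes between -0.29 (EIF3C, a core subunit next to EIF3A) and 0.18 (EIF3L). Those of EIF3CL, EIF3H, EIF3M and EIF3E were -0.29, -0.12, -0.08 and 0.02. Those of EIF3D, which can bind the cap of some mRNAs, EIF3I, EIF3K, EIF3J and EIF3G were 0.04, 0.13, 0.13, 0.14 and 0.16. EIF3CL is a near-identical copy of EIF3C, and the reads of this pair were divided almost equally in every library (271 against 269 RPM in siControl replicate 1), so that their single values are uncertain. Over the 14 genes 1 of 14 was called lower and 0 higher, against 0.957% and 0.454% of all tested genes. The median log2 fold change was 0.03, against 0.00 over all tested genes.

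Among the EIF4 genes 0 of 15 passed the adjusted p, against 1.21% lower and 0.572% higher among all tested genes. The lowest p belonged to EIF4G2, an EIF4G relative that lacks the EIF4E-binding part. EIF4G2 had 711, 701 and 683 RPM in the siControl and 499, 422 and 499 RPM in the siCGGBP1 libraries, without overlap (log2 fold change -0.56, SE 0.16, edgeR adjusted p = 0.0966). EIF4EBP2, an inhibitor of EIF4E, had 80.4, 85.1 and 71.0 RPM in the siControl and 108, 102 and 208 RPM in the siCGGBP1 libraries. All 3 siCGGBP1 libraries were above the siControl libraries, and replicate 3 stood far above the other two (log2 fold change 0.82, SE 0.29, edgeR adjusted p = 0.174). Its relative EIF4EBP1 overlapped between the groups, at a log2 fold change of -0.31. EIF4EBP3, with 9.32 to 15.9 RPM, was the third gene with all siCGGBP1 libraries above, beside EIF3J-AS1, and overlaps a read-through transcript with ANKHD1. The helicases EIF4A1 and EIF4A2 had log2 fold changes of -0.34 and 0.0072, and the scaffold EIF4G1 and the cap-binding EIF4E had -0.12 and -0.35. EIF4A1 lies within a read-through gene with SENP3. The summed reads of the EIF4 genes were 3084, 3030.4 and 2873 RPM in the siControl and 2443, 2458 and 2814 RPM in the siCGGBP1 libraries, in which the siCGGBP1 sums were all lower. For the EIF4A1, EIF4A2, EIF4E and EIF4G families alone, EIF4G2 included, they were 1992 ± 194 RPM in siControl and 1616 ± 54.4 in siCGGBP1, without overlap. This separation rests on EIF4G2: without it, a choice made after the values were seen, the sums were 1283, 1484 and 1114 RPM in the siControl and 1065, 1251 and 1112 RPM in the siCGGBP1 libraries, which overlapped. The sums over all EIF4 genes also overlapped once EIF4G2 was left out.

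The 4 EIF2 kinases overlapped between the groups and 0 passed the test, against 0.957% lower and 0.454% higher among all tested genes. Their log2 fold changes were 0.03 for EIF2AK1, the kinase known for sensing haem, 0.17 for EIF2AK2, activated by double-stranded RNA, 0.49 for EIF2AK3, the endoplasmic reticulum stress kinase, and 0.01 for EIF2AK4, which responds to uncharged tRNA. EIF2AK3 had the lowest siControl mean of the 54 tested genes, 10.2 ± 3.19 RPM (SD, n = 3), with EIF4EBP3 and EIF4E3 next. At the other end stood EIF1, EIF5B and EIF3A.

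Of the remaining factors 0 of 11 passed the adjusted p, against 1.21% lower and 0.572% higher among all tested genes. Of their log2 fold changes 10 of 11 were negative, against 5061 of the 10138 over all tested genes. EIF2A, an alternative carrier of initiator tRNA, had 162, 104 and 109 RPM in the siControl and 60.5, 50.5 and 76.3 RPM in the siCGGBP1 libraries. No siCGGBP1 library reached the lowest siControl library (log2 fold change -1.004, SE 0.27, edgeR adjusted p = 0.0863). DESeq2 called it lower (adjusted p = 0.0134). EIF1, which guards start codon selection, had 1156, 1134 and 1316 RPM in the siControl and 977, 968 and 971 RPM in the siCGGBP1 libraries, a small difference without overlap (log2 fold change -0.31, SE 0.14, edgeR adjusted p = 0.307). EIF5B, the GTPase of subunit joining, also did not overlap, at a log2 fold change of -0.39. EIF1B, EIF5A and EIF5A2 overlapped, with log2 fold changes of -0.41, -0.35 and 0.06, and reads of EIF5A may be divided with its copy EIF5AL1. EIF3J-AS1, whose gene starts close to that of EIF3J on the other strand, had 36.0, 27.5 and 16.1 RPM in the siControl and 65.5, 46.6 and 52.4 RPM in the siCGGBP1 libraries, with all siCGGBP1 values above (log2 fold change 1.05, SE 0.36, edgeR adjusted p = 0.161).

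Other genes of initiation and its control showed 3 of 31 called lower and 0 higher, against 0.957% and 0.454% of all tested genes. BZW1, known as a competitor of EIF5, fell from 189, 138 and 196 to 40.5, 43.97 and 53.4 RPM (log2 fold change -1.92, SE 0.24, edgeR adjusted p = 0.00249). ATF4, the transcription factor whose mRNA is translated when EIF2S1 is phosphorylated, fell from 308, 358 and 470.4 to 116, 143 and 171 RPM (log2 fold change -1.40, SE 0.22, edgeR adjusted p = 0.00940). ABCF1, a partner of EIF2, fell from 456, 420.0 and 286 to 172, 206 and 159.8 RPM (log2 fold change -1.11, SE 0.22, edgeR adjusted p = 0.0226). In each of these the siCGGBP1 libraries were all below the siControl libraries. BZW1 stayed called whichever library was left out, and ATF4 in each case except without siCGGBP1 replicate 1 (edgeR adjusted p = 0.0732). ABCF1 stayed called without siControl replicate 3 and was lost without each of the other 5 (edgeR adjusted p = 0.0525 to 0.122). The median log2 fold change of the 31 genes was -0.08. Of 12 tested elongation and termination genes, 0 were called in either direction, and 2 had an unadjusted p under 0.05, against 16.4% of all tested genes.

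The new-to-total ratio differed widely between the factors. EIF4A2, a helicase of EIF4F, had the highest median ratio of the 54 tested genes, with 42.8, 33.0 and 28.3% in the siControl and 39.1, 32.3 and 31.0% in the siCGGBP1 libraries. The groups overlapped, and all 6 values were above 28%. Its conversion rate was 1.31 per 100 T as the mean of the 6 libraries, 0.0808 without 4sU and 1.75 at 200 µM. Its paralog EIF4A1 had 4.34, 7.30 and 4.15% in the siControl and 4.25, 6.56 and 15.9% in the siCGGBP1 libraries. Although EIF4A1 had 2.39 ± 0.731 times the total reads of EIF4A2 in siControl, it had 0.404 ± 0.266 times the new reads, and both ratios overlapped with those in siCGGBP1 (1.93 ± 0.518 and 0.494 ± 0.297). EIF4A2 overlaps RFC4 on the opposite strand, which had 71.6 RPM in siControl and 35.9 in siCGGBP1, beside 151 and 152 RPM of EIF4A2. The median ratio over the 54 genes was 2.28%, against 2.55% over all tested genes. EIF2D was the 1 gene with a ratio of 0 in all 6 libraries.

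EIF2AK3, EIF3I, EIF1B and EIF5A2 followed EIF4A2, with median ratios of 24.02%, 18.9%, 17.6% and 14.8%. The values of EIF2AK3 (18.1, 9.43 and 62.5% in the siControl and 4.54, 29.99 and 46.4% in the siCGGBP1 libraries), a gene of few reads, were scattered within both groups. EIF1B showed 19.5, 39.7 and 15.6% in the siControl and 24.5, 10.2 and 1.75% in the siCGGBP1 libraries, against 4.14, 4.37 and 4.39% in the siControl and 7.44, 4.36 and 7.24% in the siCGGBP1 libraries for its abundant paralog EIF1. EIF1B stood above EIF1 in every library except siCGGBP1 replicate 3. EIF5A2 ranged from 0 to 66.9%.

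For EIF3I the conversions were as frequent without 4sU as with it. Its ratios of 16.4, 26.8 and 22.2% in the siControl and 15.9, 21.3 and 11.5% in the siCGGBP1 libraries came with 0.550, 0.877 and 0.574 conversions per 100 T in siControl and 0.614, 0.806 and 0.405 in siCGGBP1. The library without 4sU had 0.703 per 100 T and 44.5 reads with at least 2 conversions. Rates without 4sU were also at or above the mean with 4sU for EIF2S3 (0.382 without 4sU against a mean of 0.176) and EIF3G (0.0460 against 0.0451). These 3 of 54 genes (5.56%) had a rate without 4sU at or above the mean with 4sU, as did 8.33% of all tested genes. EIF5B, EIF2A and EIF2S1 had 0.190, 0.218 and 0.266 without 4sU, more than 50% of their means of 0.195, 0.392 and 0.498. The cause was not tested. EIF3I overlaps TMEM234 on the opposite strand, which had 2.88 RPM in siControl and 1.56 in siCGGBP1. For 28 of the 54 genes the rate was above that without 4sU in all 6 libraries. The same count was not made over all tested genes, so whether this share is usual was not tested. The library without 4sU had no replicate.

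**Figure D4:**
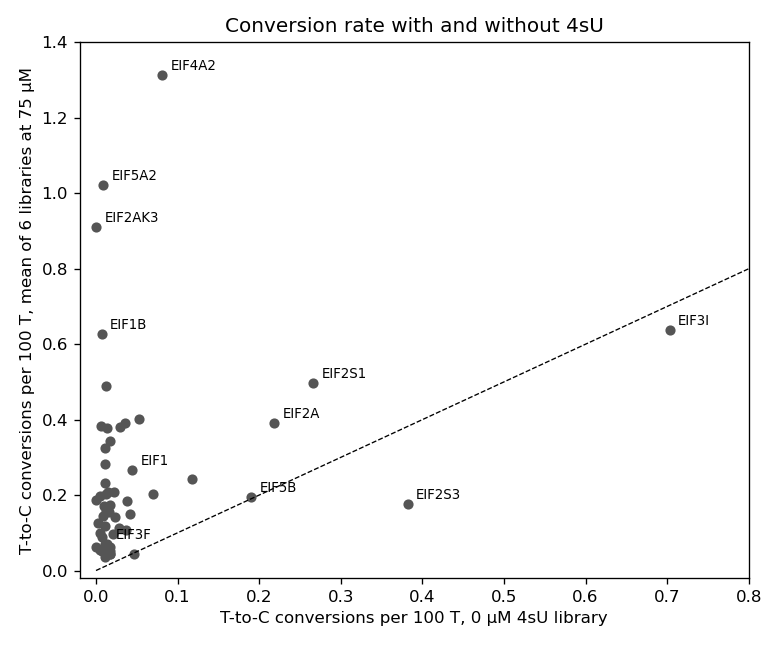
T-to-C conversions per 100 covered T in the library without 4sU (x axis) and as the mean of the 6 libraries at 75 µM 4sU (y axis) for the 54 tested genes, with the line of equal rates dashed. Most genes lie close to 0 on the x axis, and EIF3I, EIF2S3 and EIF3G lie on or under the line.

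**Figure D5:**
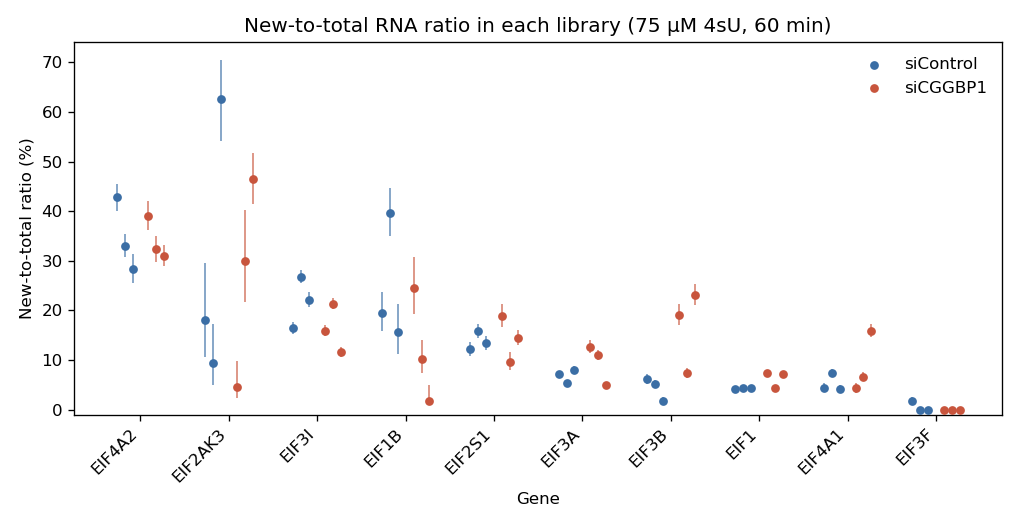
New-to-total ratio (percent) of 10 genes in each library at 75 µM 4sU (points: maximum a posteriori values; bars: the credible limits given by GRAND-SLAM). EIF4A2 stays above 28% in all 6 libraries, EIF3F is at 0 in 5 of 6, and EIF3B is the gene whose siCGGBP1 points all lie above its siControl points.

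EIF3F had little measurable new RNA in either group. Its ratio was 1.74% in siControl replicate 1 (credible limits 1.18% to 2.59%) and 0 in the other 5 libraries, where the upper limits were 0.1% to 0.47%. This corresponds to 41 new reads in that library and 0 in the others. The zeros are estimates, and the upper credible limits allowed 9.42, 8.19 and 4.29 new reads in the siCGGBP1 libraries. No fold is given, since the siControl signal rests on replicate 1 and without it both groups were at 0. Counted directly, EIF3F carried 116, 36 and 33 conversions in the siControl and 63, 76 and 8.5 in the siCGGBP1 libraries, 14 without 4sU and 11 at 200 µM. These counts overlapped between the groups. Reads with at least 2 conversions numbered 16, 1 and 0 in siControl and 1, 0 and 0 in siCGGBP1. Among the EIF3 genes EIF3F shared a median ratio of 0 with EIF3CL, EIF3G and EIF3K. By mean conversion rate with 75 µM 4sU it ranked 8 of the 14, at 0.0693 per 100 T. Without 4sU its rate was 0.0137, which 5 of the 6 libraries exceeded. EIF3A and EIF3B had median ratios of 7.57% and 6.69%, and for both the rate exceeded that without 4sU in all 6 libraries.

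In new RNA 0 of the 54 genes passed the test by edgeR, and 0 had an unadjusted p under 0.05. Of all 10138 tested genes 5 (0.0493%) were called and 319 had an unadjusted p under 0.05, so that few were reached in either set. The spread between replicates fitted by edgeR (common biological coefficient of variation) was 1.78 in new RNA, against 0.399 in total RNA. The 0 calls therefore do not show that new RNA was unchanged. DESeq2 and limma also called 0 of the 54 genes. The siCGGBP1 libraries were all below the siControl libraries for 2 genes (3.70%, against 4.42% of all tested genes) and all above them for 0 (against 2.90%). These were EIF2S1 and EIF4H. EIF2S1 had 38.2, 48.7 and 46.2 RPM of new RNA in the siControl and 26.1, 11.8 and 30.2 RPM of new RNA in the siCGGBP1 libraries (log2 fold change -0.97, SE 0.65, edgeR adjusted p = 0.994), and its conversion rate without 4sU was 0.266 per 100 T. EIF4H, a stimulator of EIF4A, had 6.81, 12.5 and 34.0 RPM of new RNA in the siControl and 6.67, 0.687 and 3.49 RPM of new RNA in the siCGGBP1 libraries (log2 fold change -2.30, edgeR adjusted p = 0.994), with the highest value in siControl replicate 3. In EIF2B5, which had the highest log2 fold change among the genes with new reads in both groups (3.15), the new reads came mostly from siCGGBP1 replicate 3. EIF4E3 and EIF3CL had new reads in 2 siControl libraries and in no siCGGBP1 library, but the upper credible limits allowed 5.26, 4.79 and 5.19 new reads of EIF4E3 and 7.12, 12.4 and 6.53 of EIF3CL in the siCGGBP1 libraries.

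For the genes whose total RNA was lower, new RNA gave wide intervals. EIF3A had 77.0, 43.1 and 56.0 RPM of new RNA in the siControl and 54.8, 48.2 and 20.8 RPM of new RNA in the siCGGBP1 libraries, with overlap, at a log2 fold change of -0.51 and a 95% interval from -1.502 to 0.49. EIF3B had 27.2, 35.4 and 7.82 RPM of new RNA in the siControl and 43.8, 21.1 and 52.9 RPM of new RNA in the siCGGBP1 libraries, at a log2 fold change of 0.74 and an interval from -0.58 to 2.06. Neither interval excludes 0, and that of EIF3A includes its total RNA value of -0.99. For EIF3B the total RNA value of -1.07 lies outside this interval, and the difference between total and new RNA was not tested.

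The new-to-total ratio of EIF3B was 6.08, 5.21 and 1.78% in the siControl and 19.1, 7.30 and 23.2% in the siCGGBP1 libraries, and every siCGGBP1 value exceeded the highest siControl value. Of the 54 genes, EIF3B alone was placed this way (1.85%, against 2.85% of all tested genes), and 0 had all siCGGBP1 ratios below (against 4.22%). EIF3B carried 0.281, 0.296 and 0.103 conversions per 100 T in the siControl and 0.663, 0.368 and 0.696 in the siCGGBP1 libraries, also without overlap, and 0.0527 without 4sU. Its reads with at least 2 conversions numbered 37, 105 and 1 in siControl and 34, 70 and 23 in siCGGBP1, which overlapped. These counts are not scaled to all reads of EIF3B. Those numbered 4480, 8208 and 5031 in siControl and 2306, 3368 and 3208 in siCGGBP1.

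By complex, the new reads summed to 55.8, 67.3 and 52.7 RPM in the siControl and 43.8, 23.6 and 38.5 RPM in the siCGGBP1 libraries for EIF2, without overlap. EIF2S1 made up 68.6, 72.3 and 87.6% in the siControl and 59.5, 49.8 and 78.4% in the siCGGBP1 libraries of that sum. The new reads of EIF2S2 and of EIF2S3 each overlapped between the groups. For EIF2S1 the conversion rate was 0.266 per 100 T without 4sU, against a mean of 0.498 with it, so that its new reads are uncertain. New sums of EIF2B, EIF3 and the EIF4 genes overlapped between the groups. New reads made up 4.26 ± 0.639% of the EIF3 reads in siControl and 4.31 ± 0.893% in siCGGBP1, and 5.27 ± 0.512% and 5.71 ± 1.14% of the EIF4 reads. EIF3I, whose conversions were as frequent without 4sU, supplied 51.6 ± 10.1% and 47.1 ± 11.1% of the new EIF3 reads. Without EIF3I, a choice made after the values were seen, new reads were 2.29 ± 0.524% and 2.58 ± 0.712% of the EIF3 reads, with overlap.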

How the data were processed

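QuantSeq 3′ libraries of 8 samples were used. Per the submitters' processing notes and the methods, rRNA reads were removed with Bowtie2 2.3.0, reads were aligned to GRCh38 with STAR 2.5.3a, and GRAND-SLAM estimated the new-to-total ratio. The table deposited by the authors holds expected counts of reads and conversions per gene (fractional for 10864 genes), which were rounded, and the new-to-total ratio as a fraction deposited by the authors with its credible limits. Spike-in RNA was added in the study, but no spike-in row was used here, so that global shifts were not measured. Total and new reads (reads multiplied by the ratio) were tested with edgeR 4.0.16 (R 4.3.3), using quasi-likelihood fits, TMM and Benjamini-Hochberg adjustment over the 10138 genes that reached 100 reads in 3 or more libraries. New reads took the library sizes and factors of total reads. Alternatives included DESeq2 1.42.0 and limma 3.58.1, other filters and scalings, and leaving out libraries. Replicates are the study's biological replicates. The members and lists were chosen with earlier results of these data known. Named genes were every EIF3 gene, called genes, the 5 lowest p-values in each fit, the 3 highest and 3 lowest siControl levels, the 5 highest median ratios, the kinases and paralog pairs, and called genes of the other lists. EIF2B genes, EIF4G2, EIF4EBP3, EIF5B, EIF2D and EIF3J-AS1 were named in addition, after their values were seen. The fits were also run on simulated counts with less spread between replicates than in these data. That run therefore does not measure what the fits can detect here, least of all in new RNA.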

Additional observations from a re-analysis of the deposited data

Results flagged for a closer look

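The single libraries at 0 and 200 µM 4sU entered none of the group comparisons. EIF4A2 had 1.75 conversions per 100 T at 200 µM, against 0.0808 without 4sU. The rate at 200 µM was above that at 0 µM for 40 of the 54 tested initiation factor genes. This was not counted over all tested genes. Over all genes the 200 µM library carried 0.218 conversions per 100 T, within the 0.183 to 0.263 of the libraries at 75 µM. Its new-to-total ratio was 0 for 54.5% of all tested genes. EIF3I had 0.703 conversions per 100 T in the library without 4sU. The 0 and 200 µM conditions had 1 library each, so that these differences have no replicate check. No group held 4 or more libraries, so that single outlying values within a group were not tested for.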

How the results depend on the processing

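In total RNA, the number of initiation factor genes called lower was 2, with 3 by DESeq2 and 4 without the low-count filter, and 0 to 1 with 1 library left out. The number called in EIF3 was 1, with 2 without the filter or at any fold change. Among the other factors it was 0, with 1 by DESeq2, without the filter or at an adjusted p under 0.1, each time EIF2A. With 1 library left out, 0 to 1 were called in EIF2, 0 to 1 in EIF3 and 1 to 3 of the other initiation genes. Over all tested genes 143 were called, with 371 by DESeq2, 324 without the filter, 219 at 500 reads or more, 291 at an adjusted p under 0.1 and 48 to 148 with 1 library left out. Log2 fold changes of single initiation factor genes under the alternatives were examined only for those chosen by the naming rules, not for every tested one. Among these the total RNA value of 12 genes, none of which passed the test, turned sign when 1 library was left out, over these ranges: EIF2AK1 (-0.0733 to 0.0868), EIF2AK3 (-0.10 to 0.79), EIF2AK4 (-0.12 to 0.20), EIF2B5 (-0.23 to 0.0707), EIF3D (-0.14 to 0.14), EIF3E (-0.16 to 0.19), EIF3G (-0.18 to 0.45), EIF3J (-0.0339 to 0.31), EIF3M (-0.25 to 0.0308), EIF4A2 (-0.14 to 0.10), EIF4E3 (-0.43 to 0.66), EIF5A2 (-0.27 to 0.35). Without the filter, EIF2AK4, EIF3E and EIF4A2 were at -0.00557, -0.00421 and -0.0132, and EIF4A2 was at -0.00172 by DESeq2 and -0.00180 with its size factors. EIF3F stayed between 0.23 and 0.53 with 1 library left out. Of the log2 fold changes of named genes in total RNA, 388 of the values under alternatives kept direction and side of the threshold, 32 turned sign, 10 lost and 7 gained a call. Same-numbered libraries of both groups correlated in their deviations from the group means at 0.116, 0.201 and 0.0976, each above every other pairing, but not all over 0.1, so that the numbers were not taken to pair the samples. With the replicate number as a block, 2 of the initiation factor genes were called lower and 161 genes in all, and EIF4E3 and EIF5A2 turned to -0.63 and -0.0237.

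In new RNA, 0 of the initiation factor genes were called under each alternative run. Over all tested genes 5 were called, with 30 by DESeq2, 18 from conversion counts, 3 from reads with at least 2 conversions, 3 with TMM on new reads, 2 with the block, 0 by limma and 3 to 6 with 1 library left out. EIF3B turned to -0.18 with reads of at least 2 conversions, EIF4A2 to 0.14 with conversion counts and 0.24 with reads of at least 2 conversions, and EIF4A1 to -0.60 without replicate 3 of both groups. EIF4A1 ran from -0.34 to 1.04 and EIF4A2 from -0.27 to 0.22 with 1 library left out. EIF3F gives no value without siControl replicate 1. With tracts of 2 or more CGG repeats, 24 genes held one in place of 7. The causes of these changes were not tested. Ratios at or near 0 and few converted reads limit new RNA, and reads divided between near-identical copies limit EIF3C and EIF3CL. Leaving EIF4G2 out of the summed EIF4A1, EIF4A2, EIF4E and EIF4G reads, chosen after seeing the data, moved their log2 ratio of group means from -0.30 to -0.18.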
